A study of Homo sapiens with 12 samples.

Results

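Expression of the PIM kinases, the SOCS family and other genes that STAT5 is known to control was followed in 2 human acute myeloid leukaemia cell lines given the FLT3 inhibitor AC220 (quizartinib). The 9 genes are the kinases PIM1, PIM2 and PIM3, the feedback inhibitors CISH, SOCS1, SOCS2 and SOCS3, the cytokine OSM and the transcriptional repressor BCL6. They were picked by name, with earlier results of these data known, and are 9 of the 19504 genes with a symbol in the deposited count table, which gives no other identifier. All 9 passed the filter on low counts, as did 12392 genes in all. MV4-11 cells carry an internal tandem duplication in FLT3 that keeps the receptor active, and OCI-AML3 cells have no such duplication. Each line was exposed for 24 h to 5 nM AC220 or to the solvent DMSO, and each of the 4 combinations of line and treatment has 3 libraries. RNA was sequenced from the 3′ ends of transcripts (QuantSeq). Each FLT3 state is represented by 1 cell line. No label states that the replicates were independent cultures, and every p-value below therefore refers to library-to-library spread that could be technical.

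FLT3 is a receptor tyrosine kinase of early blood progenitors. With the tandem duplication it signals without its ligand and phosphorylates STAT5, a transcription factor that the normal receptor engages weakly. STAT5 dimers bind palindromic DNA elements and switch on PIM1 and PIM2, whose products are serine/threonine kinases that promote survival and growth and need no phosphorylation by an upstream kinase to be active. STAT5 also switches on CISH and the SOCS genes, whose proteins bind receptors and JAK kinases through an SH2 domain and recruit a ubiquitin ligase through the SOCS box, and the cytokine oncostatin M (OSM). BCL6, a zinc finger repressor best known from germinal centre B cells, is by contrast a gene that STAT5 is known to repress.

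The promoters of the 9 genes were searched for the palindromic element that STAT5 dimers bind, TTCNNNGAA, which reads the same on both strands. RefSeq windows on the GRCh38.p14 build were used, which run from 250 bases before to 50 bases after each start of transcription. An entry was found for 7 of the 9 genes, with 9 starts between them, but not for SOCS2 and OSM. CISH held 4 matches, at -241 (TTCCTGGAA), -230 (TTCTTGGAA), -129 (TTCTAGGAA) and -112 (TTCCGGGAA), where each position is that of the first base and the first transcribed base is 1. They form 2 pairs, with 11 bases from start to start in the first pair, 17 in the second and 101 between the pairs. The upstream start of BCL6 also held 4 matches, at -28 (TTCCGAGAA), -5 and 11 (both TTCTTAGAA) and 37 (TTCTAGGAA), so that the second of them spans the start itself. The other 7 windows (PIM1, PIM2, PIM3, SOCS1, both starts of SOCS3 and the downstream start of BCL6) held none. CISH and BCL6 are printed because they hold the matches, and PIM1, which had the largest change in MV4-11 among the 9 genes, is printed beside them as a window with none. Each sequence is the 250 bases before the start and the first 20 transcribed bases, 5′ to 3′ on the strand of the gene, with matches in capitals: CISH at chr3:50611755-50612024 (minus strand), BCL6 at chr3:187745449-187745718 (minus strand) and PIM1 at chr6:37169902-37170171 (plus strand). The last BCL6 match lies beyond the printed bases.
CISH: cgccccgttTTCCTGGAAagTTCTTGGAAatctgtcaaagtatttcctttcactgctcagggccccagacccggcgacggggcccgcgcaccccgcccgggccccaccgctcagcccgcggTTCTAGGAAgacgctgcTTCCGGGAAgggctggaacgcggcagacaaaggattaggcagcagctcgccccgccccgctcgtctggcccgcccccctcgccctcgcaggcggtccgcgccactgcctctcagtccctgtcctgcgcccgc
BCL6: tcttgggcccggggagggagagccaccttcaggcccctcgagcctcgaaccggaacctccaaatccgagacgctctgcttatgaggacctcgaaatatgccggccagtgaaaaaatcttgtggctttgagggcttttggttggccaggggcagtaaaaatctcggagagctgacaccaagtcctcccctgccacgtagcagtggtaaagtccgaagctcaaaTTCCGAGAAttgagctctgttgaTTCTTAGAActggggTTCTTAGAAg
PIM1: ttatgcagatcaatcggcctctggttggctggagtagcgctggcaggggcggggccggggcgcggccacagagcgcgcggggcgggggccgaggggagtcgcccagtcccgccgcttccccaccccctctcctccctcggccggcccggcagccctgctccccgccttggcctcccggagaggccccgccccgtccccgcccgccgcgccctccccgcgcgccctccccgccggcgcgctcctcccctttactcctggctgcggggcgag

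Among all 35116 RefSeq windows of this length, 2689 (7.66%) held at least 1 match, and 7 windows (0.0199%) held 4 or more. Those 7 are the windows of CISH and BCL6, 2 of ZNF112 and 1 each of ZNF225, ZNF225-AS1 and LOC124907892. The FOXO element GTAAACA (1202 of all windows) and the TATA box TATAAA (11.5% of all windows), each searched on both strands, had no match in the 9 windows. A match is a run of letters and was not tested for binding, and its absence from a window of 300 bases says nothing of more distant elements.

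**Figure D1:**
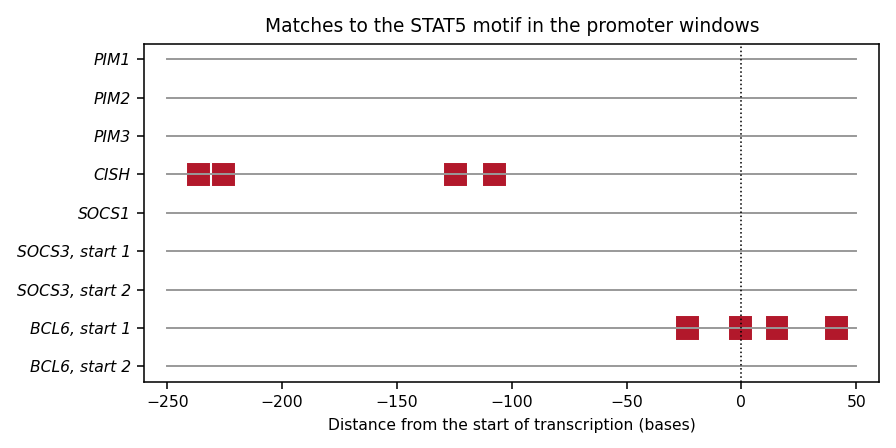
Each grey line is a promoter window from 250 bases before to 50 bases after a start of transcription (dotted line), and each red block is a match to TTCNNNGAA drawn to scale; the horizontal axis is the distance from the start in bases. The 4 CISH matches lie in 2 pairs well upstream of the start, the 4 BCL6 matches lie around its upstream start, and the other windows are empty.

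Total gene counts were between 10877198 and 16918761 per library. Levels are given as CPM, the reads of a gene scaled to a common library size over tested genes, after scaling by edgeR's TMM factors, and they are relative to all other transcripts in the library. In such bulk RNA, fewer cells that express a gene and less of its RNA per cell cannot be told apart. Replicate 1 of the MV4-11 AC220 group stood apart: its chi-square per degree of freedom against the other replicates of its group was 9.56 and 10.6, where the lowest of any pair was 2.79. It had the highest AC220 level for 7 of the 9 genes, all but PIM2 and BCL6, whereas it was the highest of the 3 for 35.9% of all tested genes. Changes of the 9 genes in MV4-11 are therefore given below with and without it. Single genes outside the 9 are given with it only. Replicate 3 of the OCI-AML3 AC220 group was also distant from the other libraries of its group, at 8.65 and 7.04. Replicate 3 of the OCI-AML3 DMSO group was at 6.65 and 6.59, against 2.79 between replicates 1 and 2. Cell identity was read from marker lists. None of the 13 myeloid markers was at 0 in any group, though CD14 had only 1 count in all in MV4-11 with AC220. CD2 and CD3E of T cells, HBB, HBA1 and GP9 of red cells and platelets, and EPCAM and KRT19 of epithelia were at 0 in all groups. COL1A2, a stromal marker, held 4.35 and 6.89 CPM in OCI-AML3 with DMSO and AC220. Other markers on those lists were detected in MV4-11 with DMSO and AC220, among them NKG7 (12.1 and 25.5 CPM), KRT8 (10.6 and 15.9 CPM), CD79A (0.521 and 4.06 CPM), PAX5 (0.887 and 3.89 CPM) and ITGA2B (1.19 and 1.92 CPM).

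AC220 lowered PIM1, PIM3, CISH and OSM in MV4-11 and raised BCL6, and the other 4 genes did not pass the test. This comparison asks which of the 9 genes changed when FLT3 was inhibited in the line with the duplication. PIM1 fell 3.96-fold, OSM 3.13-fold, PIM3 1.97-fold and CISH 1.49-fold, and BCL6 rose 3.23-fold. Calls are adjusted p-values under 0.05 from edgeR's quasi-likelihood F test over 12392 genes, with Benjamini-Hochberg adjustment. By that rule 58.3% of all tested genes changed in MV4-11, 31.5% up and 26.9% down, so that 5 of 9 genes called by this fit is a share near the background. With limma-voom 7 of the 9 genes fell and BCL6 rose, where 3936 of all tested genes rose and 3356 fell. When only the MV4-11 libraries were fitted 7 also fell, where 3431 of all tested genes rose and 3658 fell. In that fit the median log2 change over all tested genes was 0.005. In the main fit the median log2 change of the 9 genes was -0.56, against 0.07 over all tested genes. The 2 sets of libraries did not overlap for 7 of the 9 genes, 6 of them lower under AC220 (PIM1, PIM2, PIM3, CISH, SOCS1, OSM) and BCL6 higher, where 62.4% of all tested genes did not overlap, 28.9% lower and 33.5% higher. Without replicate 1 of the AC220 group SOCS1 and SOCS3 also passed the test, which makes 6 genes lower and BCL6 higher. In that run 3786 of all tested genes rose and 3300 fell.

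Among the kinases, PIM1 moved furthest. Its DMSO libraries held 182, 225 and 254 CPM and its AC220 libraries 75.1, 50.3 and 41.0 CPM. All 3 treated libraries lay well below all 3 controls, and replicate 1 was the highest of the treated ones. The group means were 220.4 ± 36.5 and 55.4 ± 17.6 CPM (SD, n = 3 each), a log2 change of -1.98 (SE 0.247, adjusted p = 0.000106 by edgeR). Without AC220 replicate 1 the change was -2.27. PIM1 is the kinase of the family most closely tied to STAT5 in FLT3-driven leukaemia.

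PIM3, which shares most of its substrates with PIM1, fell less but with little spread. The values were 125, 124 and 129 CPM with DMSO and 70.3, 63.9 and 57.9 CPM with AC220. The groups were far apart relative to their spread, with means of 126 ± 2.68 and 64.0 ± 6.25 CPM (SD, n = 3). The log2 change was -0.97 (SE 0.0748, adjusted p = 3.18e-12 by edgeR), and -1.05 without replicate 1.

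PIM2, the kinase of the family best known from lymphoid and plasma cell cancers, did not pass the test. Its libraries held 122, 124 and 119 CPM with DMSO and 104, 109.7 and 111 CPM with AC220. Every treated library was below every control, with means of 122 ± 2.73 and 108 ± 3.68 CPM (SD, n = 3), but the log2 change of -0.17 (SE 0.0768) missed the threshold by edgeR's test (adjusted p = 0.0586). PIM2 passed with limma-voom on all libraries (-0.17, adjusted p = 0.0326) and when only the MV4-11 libraries were fitted (-0.23, adjusted p = 0.00609) and missed again without replicate 1 of the AC220 group (-0.14, adjusted p = 0.147).

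Summed over the 3 PIM genes, reads went from 468 ± 36.5 CPM with DMSO to 228 ± 20.1 CPM with AC220 in MV4-11 (SD, n = 3). PIM1 supplied 46.9 ± 4.22% of that sum with DMSO and 24.0 ± 5.45% with AC220, and PIM2 26.1% and 47.9%. The PIM3 share was about level, at 27.0% and 28.1%. In OCI-AML3 the sum was 172 ± 7.61 CPM with DMSO and 188 ± 9.77 CPM with AC220, and PIM3 made up 81.7% and 80.9% of it. These are shares of reads from transcript ends, not divided by transcript length, and they are given as a description.

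**Figure D2:**
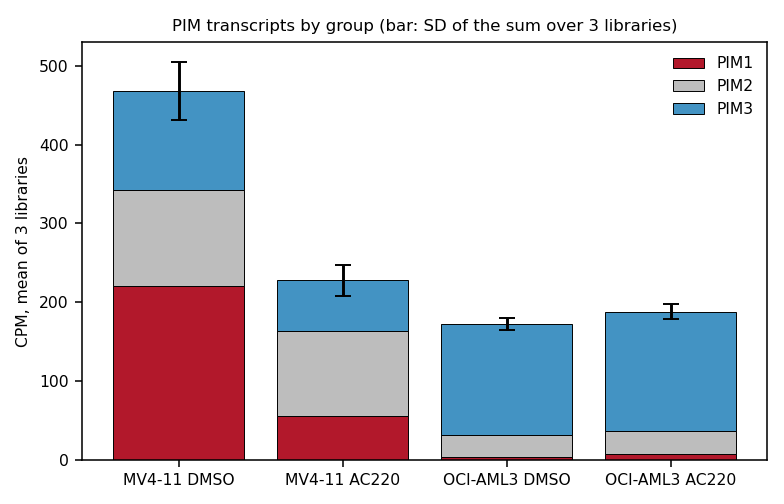
Mean CPM over 3 libraries of PIM1 (red), PIM2 (grey) and PIM3 (blue), stacked for each group; the error bar is the SD of the sum. The sum is 468 CPM in MV4-11 with DMSO and 228 CPM with AC220, and in OCI-AML3 most of it is PIM3.

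CISH, the SOCS family member most often used as a readout of STAT5 activity, fell in MV4-11. It held 69.8, 78.7 and 78.1 CPM with DMSO and 56.4, 50.5 and 44.6 CPM with AC220. The groups did not overlap, and the means were 75.5 ± 4.99 and 50.5 ± 5.89 CPM (SD, n = 3). The log2 change was -0.58 (SE 0.101, adjusted p = 1.54e-05 by edgeR), or -0.66 without replicate 1. By annotation the exons of CISH overlap those of MAPKAPK3 on the opposite strand, and the strand setting of the counting is not given in the sources used here. MAPKAPK3, chosen after its values were seen, fell in MV4-11 from 125 to 85.6 CPM (log2 change -0.55, adjusted p = 2.03e-06 by edgeR), where 26.9% of all tested genes fell. In OCI-AML3 with DMSO and AC220 it held 107 and 93.9 CPM, where CISH held 3.62 and 3.67 CPM. Whether reads of the pair are fully separated was not tested. SOCS2 and BCL6 likewise have antisense transcripts in the annotation (SOCS2-AS1, AC072022.1 and AC072022.2), which were not analysed here.

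SOCS1 and SOCS3, the family members that inhibit JAK kinases directly, were low in MV4-11 and did not pass edgeR's test on all libraries, but did pass limma-voom on the same libraries (adjusted p = 0.0375 for SOCS1 and 0.0370 for SOCS3). SOCS1 held 5.16, 4.88 and 5.92 CPM with DMSO and 4.33, 3.35 and 3.09 CPM with AC220. The 2 groups did not overlap, but the log2 change of -0.56 (SE 0.257) did not pass edgeR's test (adjusted p = 0.0643). Without AC220 replicate 1 it was -0.72 and passed (adjusted p = 0.0420). SOCS3 held 6.44, 7.83 and 8.55 CPM with DMSO and 7.06, 5.68 and 3.00 CPM with AC220. Replicate 1 with AC220 lay within the range of the controls and replicate 3 lay far below them, so the groups overlapped. The SOCS3 log2 change was -0.52 (SE 0.249, adjusted p = 0.0740 by edgeR), -0.81 without AC220 replicate 1 (adjusted p = 0.0120) and -0.24 without AC220 replicate 3 (adjusted p = 0.413). The value for SOCS3 thus depends on which treated library is kept.

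SOCS2, best known for restraining growth hormone signalling, did not pass the test. It held 19.5, 22.9 and 24.0 CPM with DMSO and 25.8, 19.4 and 20.2 CPM with AC220. The treated libraries enclosed the range of the controls, with means of 22.1 ± 2.31 and 21.8 ± 3.52 CPM (SD, n = 3). The log2 change was -0.02 (SE 0.136, adjusted p = 0.923 by edgeR), with a 95% confidence interval of -0.30 to 0.26, and -0.16 without replicate 1 (adjusted p = 0.361). Across CISH and SOCS1 to SOCS3, reads summed to 111 ± 8.44 CPM with DMSO and 81.1 ± 11.5 CPM with AC220 in MV4-11 (SD, n = 3). The CISH share of that sum was 68.3% and 62.4%, and the SOCS2 share 20.0% and 26.9%.

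OSM, a secreted cytokine of the interleukin-6 family, fell in MV4-11 at a low level. It held 7.31, 8.21 and 7.91 CPM with DMSO (126, 128 and 123 counts) and 3.49, 1.95 and 1.91 CPM with AC220 (46, 21 and 21 counts). All treated libraries were below all controls, and replicate 1 was again the highest of the treated ones. The log2 change was -1.64 (SE 0.252, adjusted p = 2.08e-06 by edgeR), or -2.01 without replicate 1. The means were 7.81 ± 0.460 and 2.45 ± 0.903 CPM (SD, n = 3).

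BCL6 was the 1 gene of the 9 that rose in MV4-11. It held 0.696, 0.577 and 1.03 CPM with DMSO (12, 9 and 16 counts) and 2.35, 1.86 and 3.27 CPM with AC220 (31, 20 and 36 counts). Each treated library was above each control, though few reads stand behind either level. The means were 0.767 ± 0.234 and 2.50 ± 0.714 CPM (SD, n = 3), a log2 change of 1.69 (SE 0.357, adjusted p = 0.000174 by edgeR), and 1.74 without replicate 1. By the size of its change among the 12392 tested genes in MV4-11, PIM1 ranked 897, BCL6 1177 and OSM 1237.

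**Figure D3:**
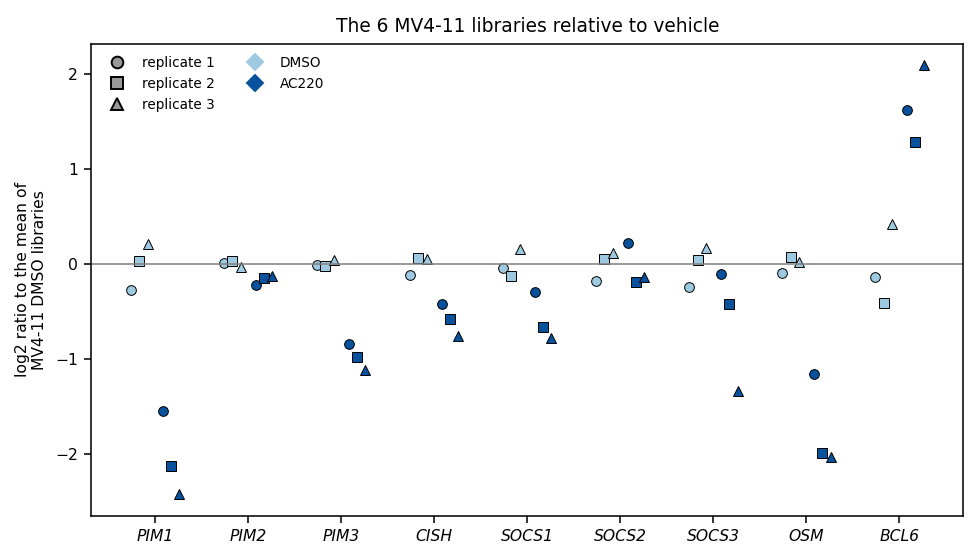
Log2 ratio of each of the 6 MV4-11 libraries to the mean of the DMSO libraries, for each gene (light blue, DMSO; dark blue, AC220; circle, square and triangle, replicates 1, 2 and 3). PIM1, PIM2, PIM3, CISH, SOCS1, SOCS3 and OSM lie below 0 in all 3 AC220 libraries and BCL6 above it, while SOCS2 lies on both sides. The SOCS3 libraries are spread widely.

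No gene of the 9 passed the test in OCI-AML3, where the same exposure was given to a line without the duplication. In that line 3.95% of all tested genes were called, 426 up (3.44%) and 63 down (0.508%), a split of 363 and 126 with median-ratio size factors and of 586 and 227 with DESeq2. At an unadjusted p under 0.05, 3 of the 9 genes passed edgeR's test (PIM1, SOCS2 and SOCS3, all higher). At that cut 1633 of the 12392 tested genes were higher and 941 lower. None of the 9 was called by DESeq2 or by limma. The median log2 change of the 9 genes was 0.17. For 2 genes, PIM1 and SOCS2, the AC220 libraries all lay above the DMSO libraries, where 14.2% of all tested genes were higher and 9.72% lower with no overlap.

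PIM1 was low in OCI-AML3, with 2.18, 4.41 and 4.70 CPM with DMSO and 5.50, 8.47 and 8.27 CPM with AC220. The treated libraries were the higher ones, with a log2 difference of 0.99 (SE 0.430, adjusted p = 0.238 by edgeR). It passed when only the OCI-AML3 libraries were fitted (0.98, adjusted p = 0.0214). SOCS2 held 1.32, 0.760 and 0.940 CPM with DMSO and 1.53, 1.67 and 1.58 CPM with AC220, a log2 difference of 0.67 (SE 0.298, adjusted p = 0.197 by edgeR). SOCS3 held 0.700, 0.760 and 1.16 CPM with DMSO and 1.53, 1.11 and 2.37 CPM with AC220, and the groups overlapped (log2 difference 0.93, SE 0.395, adjusted p = 0.172 by edgeR). All 3 genes were below 10 CPM in every library of the line.

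The other 6 genes did not pass the test in OCI-AML3 either. PIM3 held 136 to 148 CPM with DMSO and 142 to 159 CPM with AC220 (log2 difference 0.11, adjusted p = 0.401 by edgeR). PIM2 held 26.5 to 29.3 and 24.6 to 30.7 CPM (0.04, adjusted p = 0.848 by edgeR). CISH held 3.04 to 4.48 and 2.95 to 4.10 CPM, and its difference of 0.01 had a 95% confidence interval of -0.38 to 0.40. OSM held 0.304 to 0.651 and 0.486 to 0.791 CPM, from 4 to 11 counts a library, and its log2 difference of 0.34 had a 95% confidence interval of -0.63 to 1.30. BCL6 held 3.50 to 4.59 and 2.88 to 5.59 CPM, a difference of 0.17 with an interval of -0.38 to 0.72. SOCS1 was close to the limit of detection, with 4, 1 and 2 counts with DMSO and 4, 2 and 1 with AC220, and a change of it was not detectable at this depth (95% confidence interval of the log2 difference -1.59 to 1.63).

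**Figure D4:**
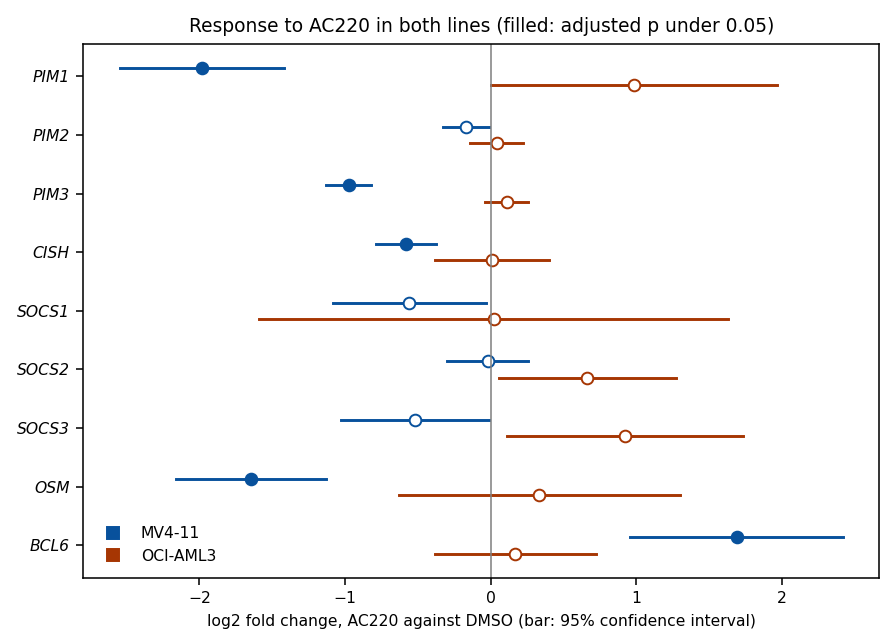
Log2 fold change of AC220 against DMSO with its 95% confidence interval for each gene, in MV4-11 (blue) and OCI-AML3 (red); filled points have an adjusted p under 0.05. The 5 filled points are PIM1, PIM3, CISH, OSM and BCL6 in MV4-11, and no OCI-AML3 point is filled.

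The response differed between the lines for 6 of the 9 genes when the difference itself was tested with an interaction term in edgeR. The log2 response of PIM1, PIM3, CISH, SOCS3 and OSM was lower and that of BCL6 higher in MV4-11 than in OCI-AML3. Over all tested genes the response differed for 46.7%, 23.7% lower and 23% higher. On the log2 scale the response in MV4-11 minus that in OCI-AML3 was -2.97 for PIM1 (SE 0.490), -1.98 for OSM (SE 0.542), -1.45 for SOCS3 (SE 0.467), -1.09 for PIM3 (SE 0.104), -0.59 for CISH (SE 0.216) and 1.52 for BCL6 (SE 0.449). Adjusted p-values by edgeR were 0.000992 for PIM1, 0.00347 for OSM, 0.0121 for SOCS3, 7.05e-10 for PIM3, 0.0260 for CISH and 0.00627 for BCL6. SOCS3 was thus called here although it passed the test in neither line, its values being lower with AC220 in MV4-11 and higher in OCI-AML3. The SOCS3 difference was lost without OCI-AML3 AC220 replicate 3, the distant library of that group (-1.08, adjusted p = 0.0815). The difference for CISH was lost when any 1 of 5 libraries was left out, with adjusted p-values from 0.0610 to 0.106: MV4-11 AC220 replicate 3, and replicates 1 and 2 of both OCI-AML3 groups. PIM2 (-0.21, adjusted p = 0.142), SOCS1 (-0.58, adjusted p = 0.613) and SOCS2 (-0.68, adjusted p = 0.0885) did not pass by edgeR. SOCS2 passed without MV4-11 AC220 replicate 1 (-0.82, adjusted p = 0.0346) or without OCI-AML3 DMSO replicate 1 (-0.92, adjusted p = 0.0450), and PIM2 passed without OCI-AML3 AC220 replicate 3 (-0.31, adjusted p = 0.0266).

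The 9 genes also stood at very different levels in the 2 lines before any inhibitor. With DMSO, 7 of the 9 were higher in MV4-11 by edgeR's test, BCL6 was lower and PIM3 was not called, where 65.5% of all tested genes differed, 32.1% higher and 33.4% lower. The libraries of the lines did not overlap for any of the 9, 7 higher and 2 lower in MV4-11, against 71.9% of all tested genes (35.4% higher, 36.5% lower). PIM1 was 58.1-fold higher in MV4-11 (220.4 against 3.76 CPM, adjusted p = 2.88e-07) and PIM2 4.40-fold higher (122 against 27.7 CPM, adjusted p = 3.03e-19). CISH was 20.7-fold, SOCS1 28.8-fold, SOCS2 21.8-fold and SOCS3 8.58-fold higher, and OSM 15.3-fold higher. The SOCS1 ratio rests on 7 counts in all over the 3 OCI-AML3 libraries, and those of OSM, SOCS3 and SOCS2 on 20, 35 and 40. BCL6 was 5.04-fold lower in MV4-11 (0.767 against 3.90 CPM, adjusted p = 4.73e-07). PIM3 was close to equal, at 126 against 141 CPM (log2 difference -0.16, adjusted p = 0.0517 by edgeR), and passed with the libraries of these groups alone (-0.16, adjusted p = 0.0188). The 2 lines differ in much more than FLT3, and which of their differences goes with these levels cannot be told apart here.

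With AC220 the same 7 genes were higher in MV4-11, and PIM3 and BCL6 were lower, where 76.2% of all tested genes differed, 36.7% higher and 39.5% lower. The libraries did not overlap for 8 of the 9, 7 higher and PIM3 lower, against 75.5% of all tested genes (36.4% higher, 39.1% lower). These comparisons share libraries with those between treatments, so their values are set side by side only. The PIM1 ratio was 7.40-fold, against 58.1-fold with DMSO, and those of OSM and SOCS3 were 3.88-fold and 3.15-fold. CISH stood 13.8-fold, SOCS1 19.3-fold and SOCS2 13.6-fold higher in MV4-11 under the inhibitor, and PIM2 3.80-fold. PIM3 was 2.37-fold lower in MV4-11 than in OCI-AML3 (adjusted p = 4.06e-15 by edgeR). BCL6 was still lower in MV4-11, at a log2 difference of -0.81 (adjusted p = 0.0127 by edgeR), but the libraries overlapped, and the call was lost without MV4-11 AC220 replicate 2 (-0.61, adjusted p = 0.0795) or OCI-AML3 AC220 replicate 1 (-0.62, adjusted p = 0.0793).

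In order of level, PIM1, PIM2, CISH, SOCS1 and OSM were highest in MV4-11 with DMSO, then in MV4-11 with AC220, then in OCI-AML3 of either treatment. For PIM1 none of the 4 groups overlapped with its neighbour in that order. For PIM2, CISH, SOCS1 and OSM only the 2 OCI-AML3 groups overlapped. SOCS2 and SOCS3 followed the same order of lines, with overlapping treatments in MV4-11 for both, and in OCI-AML3 for SOCS3. PIM3 and BCL6 were highest in OCI-AML3, whose groups overlapped for both genes. PIM3 was lowest in MV4-11 with AC220 and BCL6 was lowest in MV4-11 with DMSO.

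**Figure D5:**
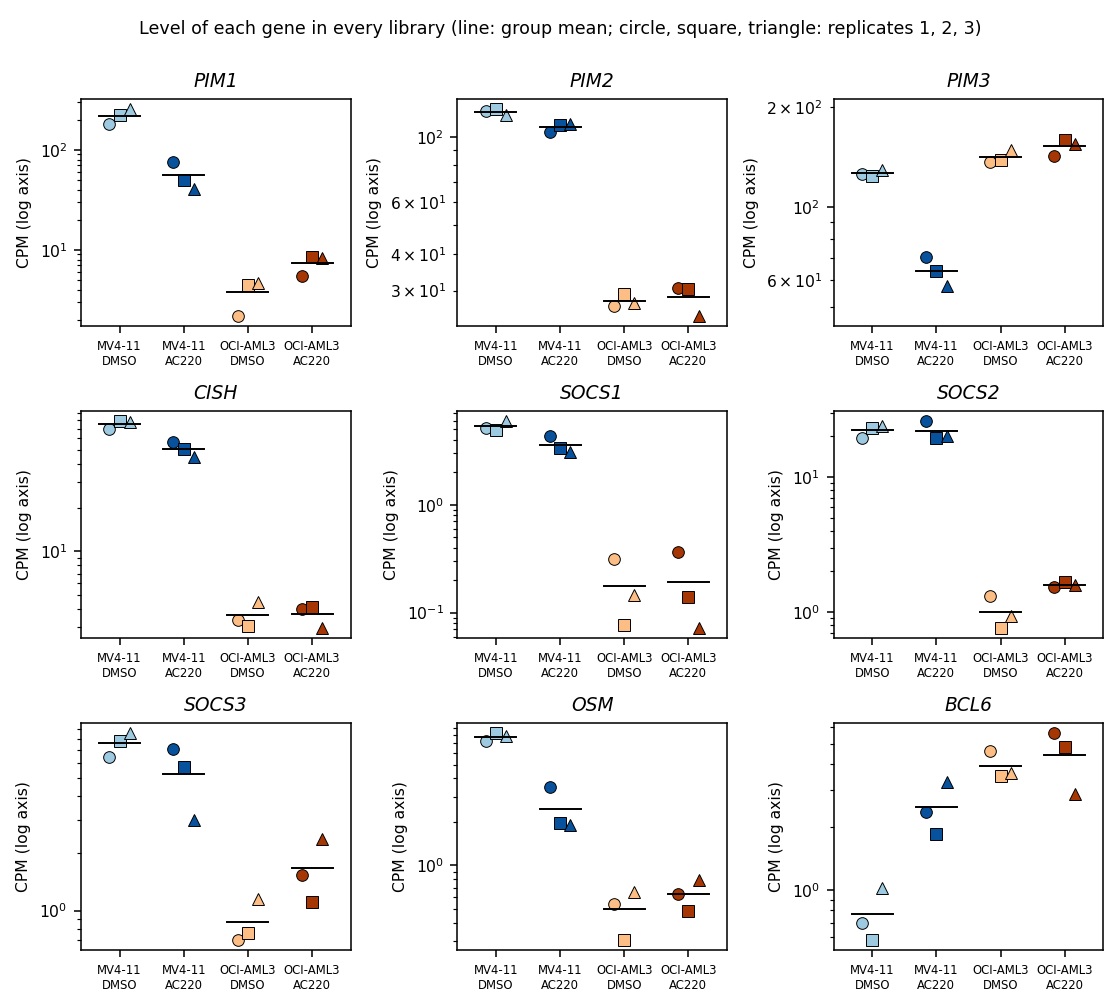
Level of each gene in every library in CPM on a log axis that does not start at 0, with a line at the group mean and a circle, square and triangle for replicates 1, 2 and 3. PIM1, CISH, SOCS1, SOCS2, SOCS3 and OSM lie far higher in MV4-11 than in OCI-AML3, PIM3 drops below the other groups only in MV4-11 with AC220, and BCL6 is lowest in MV4-11 with DMSO.

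Most of the JAK and STAT transcripts, whose proteins act upstream of the 9 genes, rose in MV4-11. Of 9 tested JAK kinases and STAT factors (of 11 listed) 7 rose and none fell in MV4-11, where 31.5% of all tested genes rose and 26.9% fell, with a median log2 change of 0.65 against 0.07 for all tested genes. STAT2 rose by 1.27, JAK1 by 0.91, STAT6 by 0.65 and JAK2 by 1.04. STAT5A rose from 6.49 to 17.4 CPM (log2 change 1.42, adjusted p = 2.12e-07 by edgeR), while STAT5B, a close paralogue whose reads may not be fully separated from it, held 11.3 and 9.79 CPM (-0.21, adjusted p = 0.274). In OCI-AML3 with DMSO and AC220, STAT5A held only 0.0766 and 0.119 CPM (3 and 5 counts in all) and STAT5B 7.38 and 7.09 CPM. Of 10 tested receptors that signal through STAT5 (of 14 listed), 5 rose, among them CSF3R (1.45), IL3RA (0.72) and IL4R (0.69), and IL7R (-1.32) and EPOR (-1.34) fell, and 58.3% of all tested genes were called in either direction. FLT3 itself rose from 218 to 364 CPM in MV4-11 (0.74, adjusted p = 0.0248 by edgeR) and held 11.9 and 23.1 CPM in OCI-AML3 (0.97, adjusted p = 0.135). Its MV4-11 libraries held 193 to 238 CPM with DMSO. With AC220 they held 269, 306 and 516 CPM, and the highest was replicate 1, the library that stood apart. Neither list had a called gene in OCI-AML3, where STAT5A, IL2RA and IL2RG had at most 10 counts in all per group. At an unadjusted p under 0.05 by edgeR the JAK and STAT list had 1 and the receptor list 2. Over all tested genes 1633 were higher and 941 lower at that cut.

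OSMR, the receptor chain specific to OSM, was nearly missing from MV4-11. It held 0.0214 and 0.0605 CPM there with DMSO and AC220, and 7.88 and 12.8 CPM in OCI-AML3 (log2 difference 0.71, adjusted p = 0.0504 by edgeR). LIFR, another receptor chain on the OSM family list, held 0 and 0.0809 CPM in MV4-11 and 1.51 and 1.08 CPM in OCI-AML3. IL6ST, the shared signalling chain gp130, held 2.21 and 2.49 CPM in MV4-11 and 5.09 and 5.52 CPM in OCI-AML3, with no change called in either line. Of the 5 tested genes of the OSM family list (of 8), IL6R alone was called in MV4-11, where it rose (log2 change 1.34). Of all tested genes 58.3% were called in that line. In OCI-AML3 none was, and 1 passed at an unadjusted p under 0.05 by edgeR, as did 1633 higher and 941 lower among all tested genes.

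Genes listed as other SOCS proteins, their ligase partners or other inhibitors of JAK-STAT signalling were mixed. Of the 5 tested of 8 listed SOCS proteins and ligase partners, 1 fell in MV4-11 (SOCS4, -0.45) and none rose; SOCS7, TCEB1 and TCEB2 had no row under those symbols. Of 13 other inhibitors on the list for JAK-STAT signalling, 7 rose and 3 fell in MV4-11, against 31.5% and 26.9% of all tested genes. Those that rose were led by the phosphatases PTPRC (log2 change 0.88) and PTPN2 (0.86) and by PIAS3 (0.88), a protein that binds STAT3. The 3 that fell were DUSP6 (-3.97), which is best known as a phosphatase of ERK in another pathway, PTPN11 (-0.67), the phosphatase SHP2, and SH2B3 (-0.58), the adaptor LNK. In OCI-AML3 DUSP6 (0.54, adjusted p = 0.0105 by edgeR) and PIAS1 (0.57, adjusted p = 0.0250) rose, where 3.44% of all tested genes rose.

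Of 10 other genes known as STAT5 targets, 5 fell and none rose in MV4-11, with a median log2 change of -0.32. A share of 26.9% of all tested genes fell there and 58.3% were called in either direction, so 5 of 10 called is near the background. The 5 were CCND3 (-1.49) and CCND2 (-1.34), cyclins of the G1 phase, ID1 (-2.66), an inhibitor of basic helix-loop-helix factors, and the survival genes BCL2 (-0.29) and MCL1 (-0.23). None of the 10 was called in OCI-AML3. At an unadjusted p under 0.05 by edgeR 3 passed, where 1633 of all tested genes were higher and 941 lower.

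Genes that encode PIM substrates moved both ways in MV4-11, and 6 of 12 called is near the 58.3% of all tested genes. Of 12 tested, 3 rose: CXCR4 (log2 change 2.37), a chemokine receptor, CDKN1B (0.40), the inhibitor p27, and BAD (0.40), a pro-apoptotic protein. The 3 that fell were CDKN1A (-2.35), the inhibitor p21, and the cell cycle phosphatases CDC25A (-2.94) and CDC25C (-2.91). None was called in OCI-AML3, with 3 at an unadjusted p under 0.05 by edgeR, where 1633 of all tested genes were higher and 941 lower. Of 14 tested corepressors and targets of BCL6 (of 16 listed), 5 rose in MV4-11, near the 31.5% of all tested genes that rose, among them CXCR4, PRDM1 (2.56), the regulator of plasma cell fate that BCL6 represses in B cells, and CD44 (0.34). CDKN1A, CHEK1 (-2.61), a checkpoint kinase, and CCND2 fell. In OCI-AML3 1 of the 14, the corepressor BCOR, rose (0.47), where 3.44% of all tested genes rose. CXCR4 and CDKN1A stand on both lists, and phosphorylation by PIM kinases was not measured.

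Differentiation markers moved with the treatment in MV4-11. The 13 myeloid markers summed to 918 to 949 CPM with DMSO and 1786 to 2004 CPM with AC220 there. Of these, 9 rose and 2 fell, where 58.3% of all tested genes were called. TYROBP, a signalling adaptor of myeloid cells, went from 192 to 794 CPM and made up much of the rise in the sum. The 2 that fell were FCER1G (24.4 to 15.6 CPM) and CD14 (0.328 to 0.0310 CPM, from few reads). In OCI-AML3 the sums were 1308 to 1360 and 1300.2 to 1421 CPM. LYZ was the 1 myeloid marker called there (log2 change 0.46), where 3.95% of all tested genes were called. The lymphoid list summed to 14.3 to 16.2 CPM with DMSO and 31.2 to 39.4 CPM with AC220 in MV4-11. Erythroid and megakaryocyte markers summed to 7.46 to 8.64 and 5.17 to 6.54 CPM there, and epithelial and stromal ones (9 of 10 in the table) to 11.8 to 12.2 and 13.9 to 22.2 CPM. The part of these shifts in the changes of the 9 genes was not tested.

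For each of the 9 genes, the 3 tested genes with the most similar profile were found by Pearson's r of log2 CPM over the 12 libraries. The libraries fall into 4 groups, which sets high values of r for many genes, and r is a description only. The profile of PIM1 was closest to those of PPP1R15A (r = 0.991), SPATA13 (0.991) and DENND3 (0.989). For PIM3 they were MCM8 (0.997), a helicase of DNA repair, TYMS (0.995), the thymidylate synthase, and SLC38A1 (0.995), and for PIM2 TFRC (0.997), the transferrin receptor, TESK1 (0.997) and NRP1 (0.996). CISH was closest to HVCN1, APP and CYTIP (all 0.996), SOCS1 to HORMAD1 (0.995), CRYBG1 (0.995) and DPP3 (0.990), and SOCS2 to GMFG (0.995), TAF7 (0.994) and CXXC5 (0.993). SOCS3 followed COX7A2L (0.982), CCNG1 (0.981) and RPS27L (0.977), and OSM followed URI1 (0.984), MICU2 (0.984) and P4HA1 (0.983). BCL6 had the loosest fit, with MAP11 (0.967), FBXO44 (0.962) and BCORL1 (0.960), the last of which is a homologue of its corepressor BCOR.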

How the data were processed

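The submitters' processing notes list, without roles, the build hg19 and the tools HISAT2 2.0.4, featureCounts of Subread 2.0.0, cutadapt 1.9.1, limma 3.42.2, R 3.6.1, FastQC 0.11.6 and bcl2fastq 2.17.1.14. The annotation and the strand setting of the counting are not given in the sources used here. The deposited counts are whole numbers per gene symbol and were tested as they stand. The authors also deposited normalised log2 values, which their table's own name credits to voom and limma and which were used only as an alternative input. A row with no symbol (0.00343 to 0.00503% of counts) was left out.

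Genes were filtered with filterByExpr (minimum count 10), scaled by TMM and tested with edgeR 4.0.16 in R 4.3.3 (quasi-likelihood F test, robust) on 12 libraries in 4 groups with 8 residual degrees of freedom, Benjamini-Hochberg adjustment over 12392 genes and a threshold of 0.05. The biological coefficient of variation was 8.28%. The script was tested on simulated data. Alternatives were median-ratio scaling, other filters, DESeq2 1.42.0, limma 3.58.1, a replicate block, fewer libraries and a threshold of 0.01. The 9 genes and all gene lists were chosen with earlier results of these data known. In each list the text names up to 3 genes per direction in MV4-11 and 2 in OCI-AML3 with the smallest adjusted p, plus STAT5A, STAT5B, JAK2, FLT3, OSMR and IL6ST, and BCL2 and MCL1 to complete a count of 5. Profiles were compared on log2 CPM with a prior count of 2. Counts limit the precision of low genes: 1 count is 0.0580 CPM in the deepest library. Gene overlaps were read from GENCODE.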

Additional observations from a re-analysis of the deposited data

Results flagged for a closer look

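For 6 of the 9 genes the response to AC220 differed between the lines by the interaction term in edgeR, and each value below is the log2 change in MV4-11 minus that in OCI-AML3. The difference was -2.97 for PIM1 (adjusted p = 0.000992), with all 3 AC220 libraries below the controls in MV4-11 and all 3 above them in OCI-AML3. It was -1.09 for PIM3 (adjusted p = 7.05e-10) and -1.98 for OSM (adjusted p = 0.00347), both lower in 3 of 3 treated MV4-11 libraries. BCL6 gave 1.52 (adjusted p = 0.00627), higher in 3 of 3 treated MV4-11 libraries. SOCS3 gave -1.45 (adjusted p = 0.0121), with overlapping libraries in both lines. CISH gave -0.59 (adjusted p = 0.0260), lower in 3 of 3 treated MV4-11 libraries, and was the difference most often lost when 1 library was left out. Their place among all genes is given by the 46.7% of tested genes for which the response differed.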

How the results depend on the processing

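No value of the 9 genes changed direction past a threshold under any alternative run. In MV4-11 the number of the 9 genes that fell was 7 with limma-voom and 7 with only the libraries compared, against 4, and between 4 and 6 with 1 library left out. Over all tested genes 3356 fell with limma-voom and 3658 with only the libraries compared, against 3329, and between 3070 and 3369 with 1 library left out. In OCI-AML3, fitting only the libraries compared gave 1 gene higher (PIM1) against 0. Over all genes in OCI-AML3 the 426 up became 663 with no filter, 45 at 0.01 and 0 with limma on the deposited values (1156 at an unadjusted p under 0.05), and between 12 and 879 with 1 library left out. The 63 down became 126 with median-ratio scaling, 173 with no filter, 227 with DESeq2, 1 with the deposited values, 115 with only the libraries compared and 2 at 0.01, and between 1 and 270 with 1 library left out. The cause was not tested. Among the runs with 1 library left out, the fewest calls there, 12 up and 1 down, came without OCI-AML3 DMSO replicate 1, and the most up, 879, without MV4-11 AC220 replicate 1. Between the lines with DMSO, 2 genes were lower (PIM3 as well as BCL6) with median-ratio scaling, the stricter filter, DESeq2, limma-voom and only the libraries compared, against 1, and between 1 and 2 with 1 library left out. With AC220, 1 was lower at 0.01, against 2, and between 1 and 2 with 1 library left out. For the difference of responses, 3 genes were lower at 0.01, against 5, and between 4 and 6 with 1 library left out; CISH was also lost with limma-voom (adjusted p = 0.0870) and with limma on the deposited values (adjusted p = 0.117). DMSO and AC220 libraries of the same replicate number had correlations of -0.12, -0.09 and -0.08 in MV4-11, where unlike numbers gave -0.02 to 0.11. In OCI-AML3 the same numbers gave 0.08, 0.05 and 0.18, and unlike numbers -0.13 to 0.06. The highest value in OCI-AML3 was thus that of the replicates numbered 3. Whether the numbers mark a shared batch was not tested. With the replicate block the counts of the 9 genes stayed as they were in all comparisons, and over all genes it called 3812 up and 3268 down in MV4-11 and 332 up and 49 down in OCI-AML3. Depth limits SOCS1, SOCS2, SOCS3 and OSM in OCI-AML3 and BCL6 in MV4-11 with DMSO.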
